A study of Mus musculus with 24 samples.

Results

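The comparison described here sets the pool of NCIN-captured RNA in the liver of mice aged 18 months against that of mice aged 2 months. NCIN (non-canonical initiating nucleotide) caps are metabolites, such as NAD or dephospho-coenzyme A, that take the place of the usual m7G cap at the start of an RNA. The members are the 3 captured libraries of each age, 6 of the 24 libraries of the series, chosen by their sample labels. All came from liver polyadenylated RNA of male C57BL/6 mice with no treatment named, and the ages are called old (18 months) and young (2 months) below. The age series also held 3 all-capped libraries per age, in which capped RNA of every kind was captured. A further 6 captured libraries, from the sets labelled 3C and 3D, came from male C57BL/6 mice of 2 months and were counted in other tables. The labels do not say whether replicates are separate animals or at what time of day the livers were taken, so p-values measure only the spread between these libraries.

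A captured library shows how much of the captured RNA pool each gene makes up. A gene can take a larger part of that pool because it has more RNA or because more of its RNA carries an NCIN cap. Here abundance was not divided out, and RNA that came through the capture without such a cap was not told apart. In the liver, hepatocytes secrete most plasma proteins, clear drugs and steroids, make bile acids and urea, and store or export fat. Male mice release growth hormone in pulses, and the liver answers through the kinase JAK2 and the transcription factor STAT5B with a male-typical set of genes. Female mice release it more evenly and express another set, rich in cytochromes P450, transporters and sulfotransferases. The nuclear receptors PPARA and PPARG direct fat burning and fat storage, and NFE2L2 (NRF2) directs antioxidant genes.

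Captured libraries held 10995383 to 21418751 counts, of which 6390015 to 13206583 fell on mouse genes, with the lowest total in old replicate 1. Fly genes, whose source the labels do not name, took 35.4% to 42.0% of the counts in young and 34.9% to 51.0% in old libraries. Fly genes and spike-ins were kept out of all levels, which are given as normalized CPM (counts per 1000000 mouse-gene counts after TMM scaling). A list's summed level covers every listed gene in the table, and its calls cover the measured genes, those that passed the filter on low counts. Values in sentences stand in the order of replicates 1, 2 and 3. A lost call beside a gene refers to fits with 1 library left out, unless a scaling is named. Losses with other scalings are summed up at the end. Differences in parentheses or after "higher by" are log2 fold changes, old over young. All 10 hepatocyte markers were measured, and 3 were higher (30%) and 4 lower (40%) in old libraries, beside 12.4% and 13.1% over all tested genes. Their summed level was 60063 to 72534 CPM in young and 64636 to 69647 CPM in old libraries. Alb, called higher as given below, made up much of that sum, so the sum does not show how the other markers moved. In bulk RNA such as this, fewer cells of a type and less RNA per cell cannot be told apart. The first principal component held 56.8% of the variance of the 6 libraries and separated the ages, from -76.8 to -44.8 in young and from 41.3 to 72.3 in old libraries.

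Of 13124 mouse genes tested, 1624 (12.4%) were higher and 1722 (13.1%) were lower in old than in young captured RNA, at an adjusted p under 0.05 by the quasi-likelihood test of edgeR, which gives every adjusted p below. The shares of 12.4% and 13.1% are the background for the counts of every list below. Of the called genes 48.5% were higher, and with libraries scaled by size only, without TMM, 65.65% (2064 higher, 1080 lower). The number higher was 957 without young replicate 2 and 1035 without old replicate 2. The median size among called genes was 1.46 on the log2 scale for those higher and 1.01 for those lower. A change of at least 2-fold was seen in 1245 of the higher and 866 of the lower genes, and at least 8-fold in 235 and 88. Levels did not overlap between the ages for 2682 genes upward (20.4%) and 2784 downward (21.2%).

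**Figure D1:**
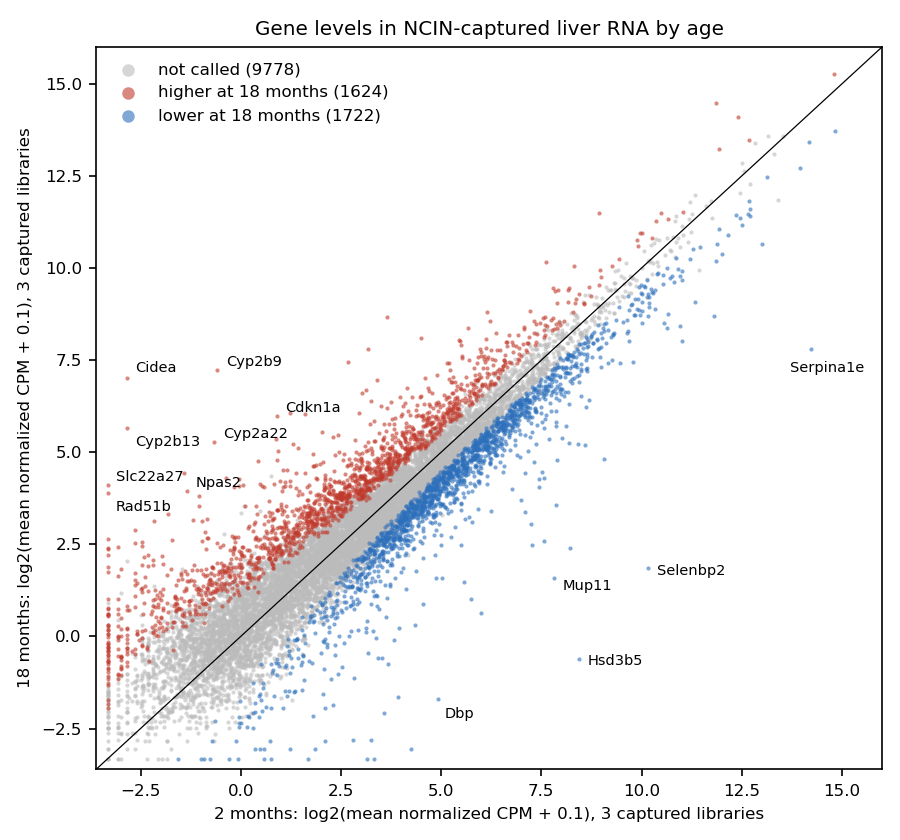
Mean normalized CPM of each of 13124 tested genes in the 3 captured libraries of 2 months (horizontal axis) and of 18 months (vertical axis), both as log2(CPM + 0.1), with the line of equal levels. Red points are the 1624 genes called higher and blue points the 1722 called lower, and labels mark some of the genes with the largest changes.

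The 12 largest increases, taken only among genes whose levels did not overlap between the ages, were in genes of several kinds. Cidea, which codes for a lipid droplet protein typical of fat tissue, stood at 0.0599, 0 and 0.0608 CPM in young libraries and at 119, 108 and 162 CPM in old ones. Its ratio was 3051 with a counting interval of 844 to 25201, at an adjusted p of 1.04e-10. Young libraries held 1 count or none. Rad51b, a DNA recombination gene, had no count in any young library and 18.3, 16.7 and 9.66 CPM in old libraries, which is at least 75.2-fold higher against a floor of 3 counts per library (adjusted p = 7.38e-08). Slc34a2, a phosphate transporter, went from 0.12, 0 and 0.0608 to 5.33, 9.37 and 7.27 CPM, a ratio of 118 with a counting interval of 39.9 to 574. Ly6d, a small surface protein, went from 0.0599, 0.309 and 0.182 to 9.38, 12.9 and 7.33 CPM (log2 difference 5.75 ± 0.50 SE). Old libraries lay above every young library for both genes, as the rule of choice required. Cdkn1a codes for p21, the cell cycle inhibitor that p53 switches on. It stood at 1.44, 1 and 2.86 CPM in young and 46.8, 46.3 and 95 CPM in old libraries, a log2 difference of 5.12 ± 0.38 with an adjusted p of 2.82e-08. The other 7 of the 12 were Slc22a27, Cyp2b13, Cyp2b9, Acot3, Cyp2a22, Gsta1 and Npas2, which are described with their groups.

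The 12 largest decreases, chosen by the same rule, were mostly genes of the male liver. Hsd3b5, Selenbp2, Adgrf1, Ces2b, Ces4a, Ugt2b38, Serpina1e and Mup11 belong to the list of male-biased genes below, and Dbp and Ciart are clock genes. Tff3, a secreted trefoil peptide, was at 6.95, 5.79 and 7.72 CPM in young libraries and at 0, 0.127 and 0 CPM in old ones, a ratio of 142 with a counting interval of 38.9 to 1175. Clec2h, a lectin-like surface protein, was at 19.7, 13.3 and 12 CPM against 0.116, 0 and 0.537 CPM (log2 difference -5.92 ± 0.57, adjusted p = 9.84e-07). No old library reached the lowest young level of either gene, as that rule required.

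**Figure D2:**
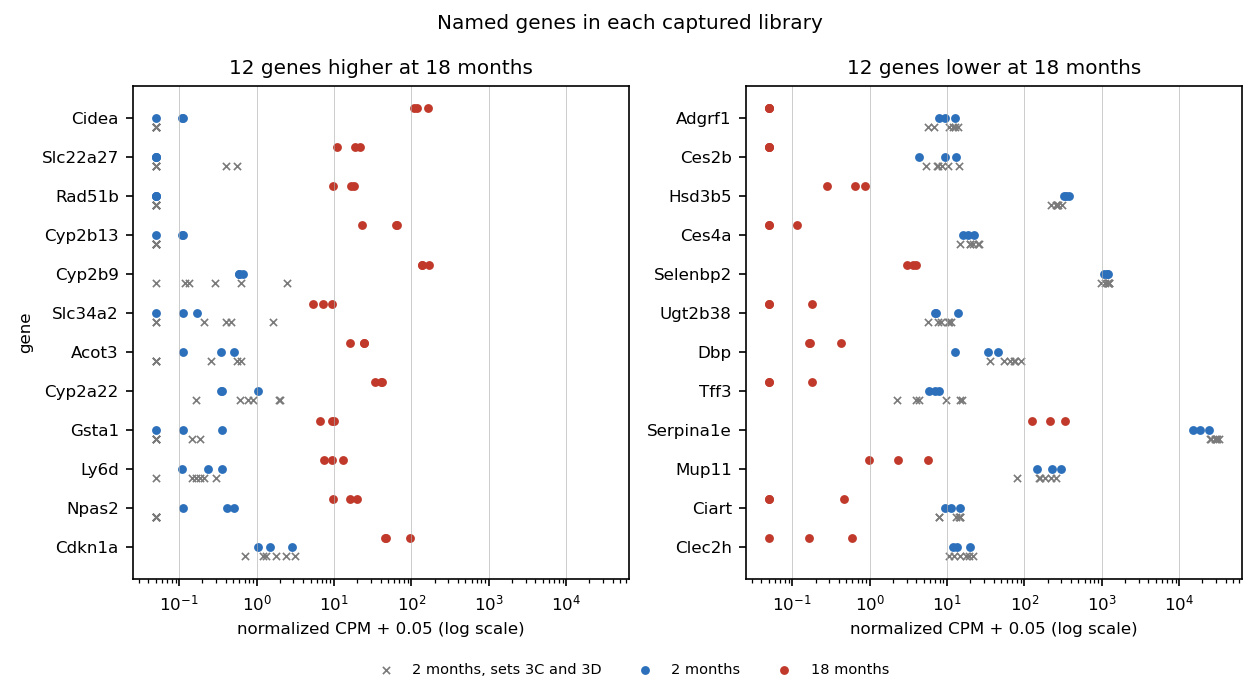
Normalized CPM + 0.05 on a log axis for the 12 genes with the largest increases and the 12 with the largest decreases, one point per captured library. Red points (18 months) and blue points (2 months) do not overlap for any of the 24 genes, because lack of overlap was a condition of their choice. Grey crosses show the 6 captured libraries of sets 3C and 3D, also of 2 months.

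Male-biased liver genes were mostly lower at 18 months. Of 48 listed genes, 46 were measured, and 37 of them were lower and 2 higher in old captured RNA. Their median log2 difference was -2.22, beside 0.04 over all tested genes. The listed genes summed to 28577 to 38771 CPM in young and 5020 to 5794 CPM in old libraries. Without the 7 genes that an earlier look at these data had named, 30 of 39 were lower, with a median of -1.77, an alternative added after seeing the data. Members with no count in old captured libraries, such as Adgrf1 and Ces2b, were measured because of their counts in young libraries. They could only be called lower or not at all, so the calls lean toward genes lower. Counts of genes lower ranged from 27 to 37 over the other settings tried. The 27 came where at least 10 counts were required in every library, and the median was then -1.58.

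Hsd3b5, a steroid dehydrogenase of the adult male liver, stood at 374, 347 and 321 CPM in young libraries and at 0.232, 0.829 and 0.596 CPM in old ones. That is a log2 difference of -9.16 ± 0.48, with an adjusted p of 6.27e-10. Selenbp2, a selenium-binding protein gene, went from 1218, 1068 and 1165 to 3.94, 3 and 3.58 CPM (log2 difference -8.37 ± 0.24, adjusted p = 9.01e-14). Both varied little among the young libraries and were nearly gone from the old ones. The adhesion receptor gene Adgrf1 stood at 12.6, 9.34 and 7.78 CPM in young libraries and had no count in old ones, at least 41.4-fold lower against a floor of 3 counts per library. Ces2b, a carboxylesterase gene, stood at 9.28, 4.24 and 12.9 CPM and likewise had no count in any old library, at least 36.8-fold lower. Ces4a, of the same enzyme family, went from 18.6, 22.1 and 16.1 to 0, 0.0637 and 0 CPM, and Ugt2b38, a glucuronosyltransferase gene, from 14, 7.18 and 6.87 to 0, 0.127 and 0 CPM. Each had counts in 1 old library at most.

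The male-biased list also holds genes of secreted proteins. Serpina1e, one of several alpha-1-antitrypsin genes and abundant in young captured pools, stood at 18486, 24119 and 15210.0 CPM in young and 212, 125 and 337 CPM in old libraries. Its log2 difference was -6.42 ± 0.39. Major urinary proteins carry pheromones into male urine. Mup11 went from 302, 229 and 145 to 0.926, 5.55 and 2.27 CPM (log2 difference -6.2), and Mup7, Mup17, Mup1, Mup21, Mup12 and Mup3 were lower, at log2 differences of -5.82, -3.37, -3.22, -2.5, -1.62 and -0.96. Mup20, an abundant member of the family, was at 1319, 650.5 and 812 CPM in young and 657, 869 and 686 CPM in old libraries, overlapped between ages and did not pass the test (log2 difference -0.33, adjusted p = 0.441). Mug2, a protease inhibitor gene of the list, did not pass either (adjusted p = 0.648). The terminal complement genes C6, C8b, C8a and C9 were lower, at log2 differences of -3.04, -3.19, -1.25 and -0.96. The call of Mup3 was lost without young replicate 2. The Mup, Serpina1, Cyp2b, Ces and Ugt2b families hold near-identical copies between which reads can be split, so the level of a single copy is uncertain.

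Other male-biased members included enzymes, receptors and a transporter. Cyp7b1, an oxysterol and steroid hydroxylase, stood at 398, 381 and 372 CPM in young and 32.4, 30.0 and 46.3 CPM in old libraries (log2 difference -3.4 ± 0.22, adjusted p = 5.87e-09). Egfr, the epidermal growth factor receptor, went from 503, 633 and 478 to 20.7, 25.6 and 38.2 CPM (log2 difference -4.25). The organic anion transporter gene Slco1a1 went from 80.2, 39.1 and 40.1 to 1.51, 1.34 and 2.92 CPM (log2 difference -4.75). In all 3 genes the lowest young level was over the highest old level. Cyp4a12b, Cyp4a12a, Cyp2d9, Srd5a1 (steroid 5-alpha-reductase), Lifr and Gstp1 were lower, at log2 differences of -4.16, -1.32, -1.9, -1.68, -1.77 and -2.04. Ugt2b5 and Hsd11b1, the enzyme that activates glucocorticoids, were the 2 members called higher, by 0.78 and 0.5 on the log2 scale. The call of Ugt2b5 was lost without young replicate 2, and that of Hsd11b1 when any 1 library except young replicate 1 was left out.

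Female-biased liver genes moved the other way. Of 55 listed, 43 were measured, and 25 of them were higher and 2 lower in old captured RNA, with a median log2 difference of 1.79 beside 0.04 over all tested genes. With genes that had no young counts set at their lower bound, the median was 1.53. The listed genes summed to 607 to 665 CPM in young and 1673 to 2002 CPM in old libraries. Cyp3a41a, Cyp3a41b, Sult2a4 and Sult3a2 had no count in any captured library of either age. Members with no count in young captured libraries, such as Slc22a27 and A1bg, were measured because of their counts in old libraries. They could only be called higher or not at all, so the count of genes higher leans upward. Where at least 10 counts were required in every library, which removes genes near 0 in young mice, 10 were higher and the median was 0.68.

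In the Cyp2b family 3 members were higher. Cyp2b9, a cytochrome P450 of the female liver, stood at 0.539, 0.617 and 0.547 CPM in young and 170.2, 139 and 139 CPM in old libraries (log2 difference 8.02 ± 0.45, adjusted p = 1.47e-09). Cyp2b13 stood at 0.0599, 0 and 0.0608 CPM in young and 66.2, 63.2 and 23 CPM in old libraries, a ratio of 1093 with a counting interval of 302 to 9033. Cyp2b10, the family member that drugs induce through the receptor CAR, went from 0.778, 1.7 and 3.41 to 15.9, 25.8 and 26.2 CPM (log2 difference 3.52). Cyp2b10 did not overlap between ages, as 20.4% of all tested genes did not in this direction. For Cyp2b9 and Cyp2b13 lack of overlap was a condition of their choice. Slc22a27, an organic anion transporter gene, had no count in young libraries and 21.4, 18.7 and 10.9 CPM in old ones, at least 86-fold higher. Cyp2a22 went from 0.299, 1 and 0.304 to 41.3, 40.5 and 33.8 CPM and Cyp2a4, a testosterone hydroxylase, from 0.24, 0 and 0 to 7.41, 5.29 and 4.83 CPM. Their log2 differences were 6.22 ± 0.40 and 5.93 ± 0.58.

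Several female-biased members act on fatty acids. Acot3, a peroxisomal acyl-CoA thioesterase, stood at 0.299, 0.463 and 0.0608 CPM in young and 24.2, 24.5 and 16 CPM in old libraries (log2 difference 6.31 ± 0.47). Hao2, which oxidises hydroxy acids in peroxisomes, had no count in young libraries and 6.83, 5.42 and 3.04 CPM in old ones, at least 25.8-fold higher. Cyp4a14, a fatty acid hydroxylase, went from 8.98, 13 and 15 to 449.8, 390.1 and 382 CPM (log2 difference 5.04 ± 0.29). Hao2 and Cyp4a14 did not overlap between ages, and for Acot3 lack of overlap was a condition of its choice. Abcd2, a peroxisomal transporter of long-chain fatty acids, Vldlr, a lipoprotein receptor, and Prlr, the prolactin receptor, were higher by 4.59, 5.32 and 1.05. Dclk3 and Cyp2c40 were lower, at log2 differences of -1.75 and -1.73, and each of these calls was lost in 4 of the 6 fits that left out 1 library, Dclk3's without young replicate 2 or 3 or old replicate 2 or 3 and Cyp2c40's without young replicate 1 or 2 or old replicate 1 or 3. Sult2a1, a sulfotransferase of the female liver, was at 0 CPM in every young and at 0.232, 0.51 and 0 CPM in old libraries and did not pass the test (adjusted p = 0.0941).

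Genes of the growth hormone and IGF axis were called in both directions. Of 26 measured members, 4 were higher (15.4%) and 6 lower (23.1%), with a median of 0.04. The shares over all tested genes were 12.4% and 13.1%, and whether the list differed from these was not tested. Ghr, the receptor, was at 221, 144 and 180.1 CPM in young and 165, 168 and 152 CPM in old libraries (adjusted p = 0.483). Stat5b was at 52.2, 49.1 and 51.6 against 45.4, 39.5 and 49.8 CPM (adjusted p = 0.6), and Igf1 at 322, 302 and 228 against 379.9, 408 and 281 CPM (adjusted p = 0.277). All 3 overlapped between the ages. The repressor Bcl6, which holds down female-biased genes in males, was lower, from 6.29, 13.6 and 13.2 to 2.32, 4.53 and 1.37 CPM (log2 difference -2.0 ± 0.47), as was Igfals (-1.62), which stabilises IGF1 in blood. Onecut1, another factor of sex-biased genes, was lower, at a log2 difference of -1.71, a call lost without young replicate 1, old replicate 2 or old replicate 3. Igfbp2, an IGF-binding protein, was lower, from 179.7, 267 and 336 to 35, 36 and 54.4 CPM (log2 difference -2.64). The oestrogen receptor Esr1 and the glucocorticoid receptor Nr3c1 were higher by 1.26 and 1.42. Cux2, a female-specific factor, stood at 1.62, 1.93 and 2.55 against 1.51, 0.829 and 1.01 CPM and did not pass the test (adjusted p = 0.382).

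Sequences at the start sites of 6 of the genes with the largest changes are shown because the cap sits on the first transcribed base. They are RefSeq windows of 55 bases on mouse build GRCm38.p6, printed 5′ to 3′ on the gene's strand, with the annotated start base in capitals, and the first listed start was used.
Cyp2b9 (chr7:26173364-26173418, + strand): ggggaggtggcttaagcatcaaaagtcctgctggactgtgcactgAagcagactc
Cyp2b13 (chr7:26061450-26061504, + strand): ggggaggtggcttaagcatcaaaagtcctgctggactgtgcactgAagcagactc
Cyp2a22 (chr7:26939377-26939431, - strand): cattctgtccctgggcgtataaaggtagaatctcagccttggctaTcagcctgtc
Hsd3b5 (chr3:98645525-98645579, - strand): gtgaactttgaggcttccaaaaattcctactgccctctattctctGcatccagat
Selenbp2 (chr3:94693528-94693582, + strand): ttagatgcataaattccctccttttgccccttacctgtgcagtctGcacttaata
Cdkn1a (chr17:29090934-29090988, + strand): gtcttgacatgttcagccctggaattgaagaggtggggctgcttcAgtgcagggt
The windows of Cyp2b9 and Cyp2b13 were identical over all 55 bases, and 298 of the 300 bases of their promoter entries matched, so the sequence around the start does not tell them apart. NAD takes the place of an initiating adenosine. The annotated start base was A in 370 of 1196 genes called higher that had a promoter entry (30.9%), in 388 of 1343 called lower (28.9%), and in 29.3% of the 9754 tested genes with an entry. The motif TTCNNNGAA, to which STAT5 factors bind, reads the same on both strands and was looked for in the 300 bases of each entry. It was present in 3 of 36 male-biased and 4 of 33 female-biased measured genes with an entry (8.33% and 12.1%), beside 6.94% of the 9754 tested genes with an entry and 8.47% of all 27025 entries. These matches describe the annotated windows only, and annotated starts may differ from those used in these livers.

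Fat storage genes were mostly higher. Of 18 measured genes associated with PPARG, 14 were higher and 3 lower, with a median log2 difference of 1.75 beside 0.04 over all tested genes. Pparg itself stood at 2.04, 4.17 and 1.58 CPM in young and 14.6, 8.8 and 8.88 CPM in old libraries (log2 difference 2.06 ± 0.37, adjusted p = 0.00066). Cd36, which takes up fatty acids at the cell surface, went from 8.26, 4.01 and 6.51 to 186, 209 and 132 CPM (log2 difference 4.8 ± 0.28, adjusted p = 1.96e-09). Neither gene overlapped between ages. Plin4, which coats lipid droplets, stood at 0, 0 and 1.16 CPM in young and 11.7, 18.5 and 11.8 CPM in old libraries. Mogat1, which makes diacylglycerol, went from 0.599, 0.54 and 0.243 to 9.38, 9.62 and 8.17 CPM, and Cidec, which fuses droplets, from 1.56, 2.55 and 1.28 to 23.4, 32.6 and 41.1 CPM. Their log2 differences were 5.09, 4.28 and 4.19. The 3 members lower were Fabp5 (-2.48), Lpin1 (-1.83) and Pck1 (-1.73), of which Pck1 is better known for making glucose. With at least 10 counts required in every library, 8 members were called higher.

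Lipid droplet genes went both ways. Of 25 measured, 11 were higher and 5 lower, with a median of 0.34 that became -0.13 without old replicate 2. Besides Cidea, Plin4, Mogat1 and Cidec, the droplet genes Plin2, a coat protein, and Hsd17b13, an enzyme on the droplet surface, were higher by 0.92 and 1.63. Lipases went different ways. Lipe (hormone-sensitive lipase) went from 17.5, 27 and 14.7 to 2.55, 8.22 and 4.53 CPM (log2 difference -1.92 ± 0.35), and Pnpla2 (adipose triglyceride lipase) was lower, at a log2 difference of -1.41. Pnpla3, of the same family, was higher by 2.98 from near 0, at 0.12, 0 and 0.547 CPM in young and 2.89, 1.4 and 1.55 CPM in old libraries, a call lost without young replicate 2. Mgll (monoglyceride lipase) was at 514, 605 and 625 against 575, 517 and 499 CPM, overlapped between ages and did not pass (adjusted p = 0.563). Dgat2, which makes triglyceride, was lower, at a log2 difference of -1.18. Of 6 measured adipocyte markers, 3 were higher (Cidec, Cfd and Fabp4) and 2 lower (Lipe and Pck1), the 10 listed markers summed to 357 to 727 CPM in young and 108 to 336 CPM in old libraries, and Lep had no count in any captured library. Their part in the result was not tested.

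Fatty acid synthesis was higher in 11 of 29 measured genes and lower in 1, with a median of 0.73, and the list summed to 7969 to 11036 CPM in young and 25141 to 38699 CPM in old libraries. Scd1, which makes monounsaturated fatty acids, led that sum at 3313, 2426 and 5469.6 CPM in young and 22042, 17193 and 29498 CPM in old libraries (log2 difference 2.62 ± 0.33, adjusted p = 1.94e-05). The elongase Elovl6 went from 12.7, 8.18 and 10.6 to 117, 189.8 and 67.1 CPM and Elovl5 from 529, 443 and 491 to 3427, 2281 and 2951 CPM, log2 differences of 3.57 and 2.57. Me1, malic enzyme, which supplies NADPH, went from 63.4, 65.4 and 94.7 to 424, 341 and 372 CPM (log2 difference 2.35). In these 4 genes every old library was above every young one. Fasn, Acly and Acaca were higher by 1.66, 1.5 and 1.02. Thrsp was the member lower (-0.79), a call lost without young replicate 1 or 3 or old replicate 1 or 3, and Srebf1, the factor that drives the pathway, stood at 291, 483 and 479 against 228, 219.6 and 359.6 CPM (adjusted p = 0.119). Scaling to the spike-in total left 6 genes called higher.

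Cholesterol genes went both ways, with 6 of 29 higher and 6 lower (20.7% each, beside 12.4% and 13.1% over all tested genes). Their median was -0.16 and became 0.02 when libraries were scaled by size only. Insig2, which holds back sterol synthesis, went from 119.5, 38 and 55.5 to 399.8, 569 and 377 CPM (log2 difference 2.66 ± 0.35), and Hmgcs1 from 20.2, 24.7 and 18.2 to 103, 69.5 and 62.5 CPM (1.89). Scap, the escort of the sterol-sensing factors, was lower (-1.73), as was Sqle (-1.51), squalene epoxidase.

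Bile acid genes were lower in 10 of 28 and higher in 5. Those lower included Cyp7b1 and Slco1a1 (above), Cyp27a1, which starts the alternative pathway (-1.43), Cyp2c70, which makes muricholic acids (-1.66), and Slc10a1, the main uptake carrier (-1.15). Cyp7a1, the rate-limiting enzyme of the classical pathway, was at 66, 23.3 and 36.8 CPM in young and 41.5, 56.5 and 30.6 CPM in old libraries and did not pass the test (adjusted p = 0.97). The exporter Abcc4 went from 2.46, 1.93 and 0.426 to 6.14, 7.14 and 7.69 CPM and the carrier Slco1a4 from 12.2, 3.93 and 5.59 to 50.4, 18.2 and 28.3 CPM, log2 differences of 2.12 and 2.14, and the call of Abcc4 was lost without young replicate 3. The list's median was -0.14 and became 0.04 under scaling by library size only.

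PPARA targets and fatty acid oxidation genes were higher in 17 of 40 and lower in 6, with a median of 0.30. Besides Acot3 and Cyp4a14, Pdk4, which spares glucose by blocking pyruvate oxidation, went from 0.419, 0.54 and 1.4 to 18.5, 17.1 and 14.4 CPM (log2 difference 4.38 ± 0.42). Vnn1, a pantetheinase that frees the building block of coenzyme A, went from 8.62, 6.94 and 7.3 to 62.9, 68.7 and 70.6 CPM (log2 difference 3.14 ± 0.24). Old libraries were well apart from young ones in both. Cyp4a10, Acot2 and Acadm were higher by 2.61, 2.7 and 1.58. The receptor Ppara (-0.9), its partner Creb3l3 (-1.4) and Cpt1a, the gate of mitochondrial fatty acid entry (-1.35), were lower. Scaling to the spike-in total left 11 genes higher and 3 lower.

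Among 24 genes of lipoprotein assembly, 5 were higher and 7 lower, with a median of -0.07 that became 0.13 under scaling by library size only. Apoa4 went from 31.3, 29.9 and 72.2 to 299, 261 and 222 CPM (log2 difference 2.55). Apob, the backbone of VLDL, was higher by 1.16. Apom, a carrier of sphingosine phosphate, went from 102, 131 and 145 to 28.8, 28.2 and 29.9 CPM (-2.12), and Scarb1, the HDL receptor, and Apoa1, the main HDL protein, were lower, at log2 differences of -1.97 and -1.24.

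**Figure D3:**
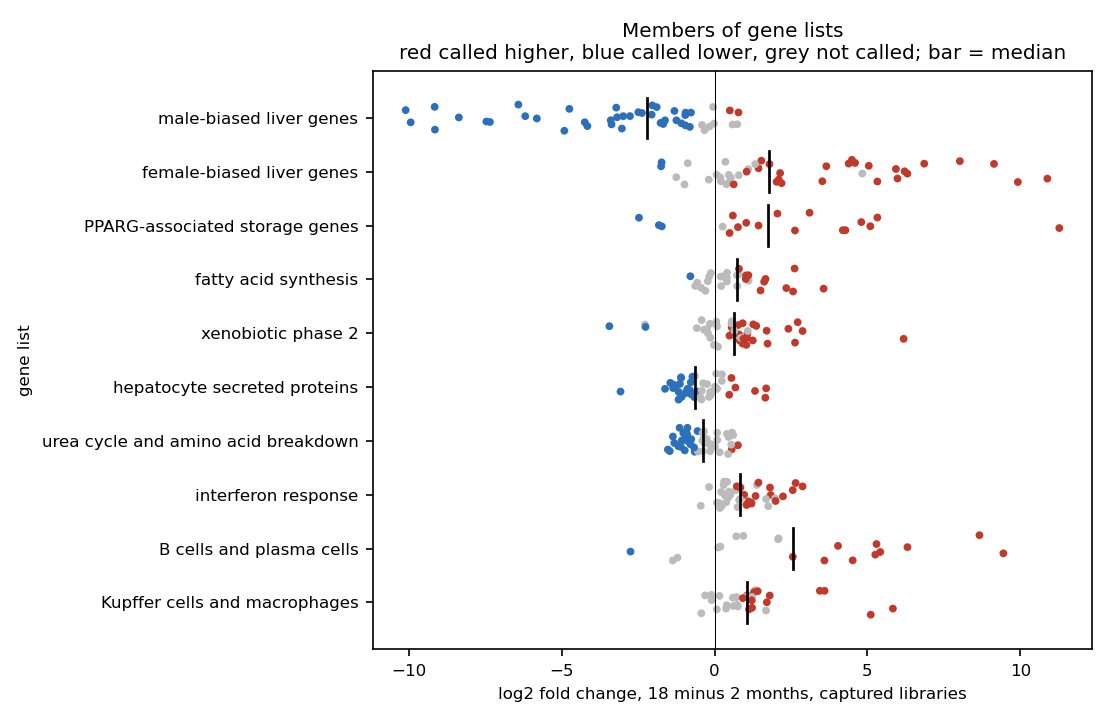
Log2 fold change (18 minus 2 months, captured libraries) of each measured member of 10 gene lists, with the list median as a bar. Red members were called higher, blue lower and grey neither, and male-biased genes lie mostly to the left (37 of 46 lower) while storage genes lie mostly to the right (14 of 18 higher).

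Conjugating enzymes of detoxification were more often higher than lower. Of 43 measured phase 2 genes, 23 were higher and 2 lower, with a median of 0.65, and their sum was 11926 to 14238 CPM in young and 23448 to 28185 CPM in old libraries. Most of those higher were glutathione transferases. Gstm1 stood at 4826, 6785 and 4637 CPM in young and 19459, 15021 and 18348 CPM in old libraries (log2 difference 1.7 ± 0.18, adjusted p = 3.23e-06). Gsta1 went from 0, 0.309 and 0.0608 to 9.49, 9.94 and 6.56 CPM (log2 difference 6.18 ± 0.65) and Gsta2 from 3.53, 1.39 and 6.51 to 24.2, 30.9 and 21.2 CPM (2.72). Gstm1 and Gsta2 did not overlap between ages, and for Gsta1 lack of overlap was a condition of its choice. Near-identical family members can share reads. Mgst3 and Gstm3 were higher by 2.88 and 2.41. Sult5a1, a sulfotransferase, was among those lower and stood at 29.2, 36.3 and 32 CPM in young and 2.2, 2.49 and 4.05 CPM in old libraries (log2 difference -3.44 ± 0.32). Scaling to the spike-in total left 9 genes called higher.

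Phase 1 genes went both ways, with 20 of 52 higher and 15 lower and a median of 0.14 that became -0.03 under scaling to the 0% spike-in. Cyp3a11, the main drug-metabolising P450 induced through PXR, went from 235, 137 and 220.3 to 1324, 1197 and 925 CPM (log2 difference 2.54 ± 0.28), and Cyp2c38 from 7.37, 9.57 and 11.4 to 91.7, 78.3 and 80.8 CPM (3.15). Cyp1a2, which clears caffeine, went from 1771, 2221 and 1967 to 309, 358 and 358 CPM (log2 difference -2.54 ± 0.16), and Ces3b from 3346, 4119 and 3217 to 377, 280.0 and 588 CPM (-3.1). Cyp2e1, the ethanol-oxidising P450 and an abundant RNA of the pool, was lower, at a log2 difference of -1.24, and Por, the electron donor that all microsomal P450s share, was lower too (-1.89). Of 19 NRF2 targets, 8 were higher and 2 lower, with a median of 0.64. Nqo1 went from 4.01, 1.54 and 2.01 to 12.3, 10.6 and 9.72 CPM (2.08), Gclc, the first enzyme of glutathione synthesis, from 82.5, 70.6 and 72.3 to 204, 214 and 239.5 CPM (1.54), and Ugdh was higher by 1.8. Nfe2l2 itself was at 26.9, 46.6 and 48.5 against 69.4, 51 and 56.1 CPM (adjusted p = 0.0988). Scaling to the spike-in total left 4 of the NRF2 targets higher.

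**Figure D4:**
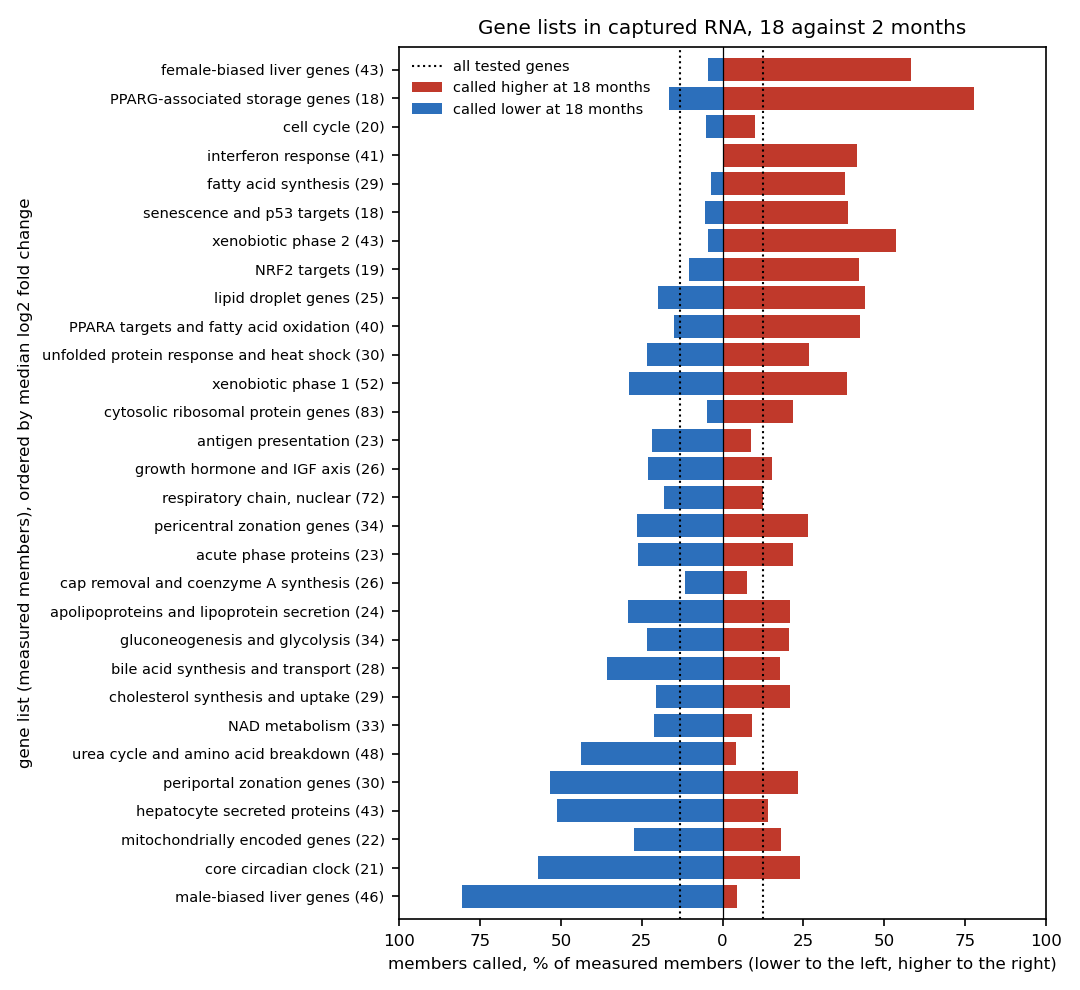
Share of the measured members of each gene list called higher (red, to the right) or lower (blue, to the left) in old captured RNA, with the number measured in parentheses and lists ordered by median log2 fold change. Dotted lines give the shares over all tested genes, 12.4% higher and 13.1% lower, and, of the pathway lists drawn (cell type markers are not), the storage, female-biased and phase 2 lists reach farthest to the right while the male-biased list reaches farthest to the left.

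Plasma proteins and nitrogen metabolism were more often lower than higher. Of 43 measured secreted hepatocyte proteins, 22 were lower and 6 higher, with a median of -0.65, and they summed to 116060 to 139040 CPM in young and 81629 to 103300 CPM in old libraries. Serpina1c went from 3035, 5159.9 and 4227 to 1365, 1173 and 1492 CPM and Serpina1a from 3502, 5853 and 4453 to 2094, 1572 and 2079.8 CPM, log2 differences of -1.62 and -1.27. The coagulation factor F11 went from 52.8, 50.1 and 33 to 7.99, 2.87 and 5.54 CPM (log2 difference -3.08 ± 0.38), and Ahsg (fetuin-A), C3 and Vtn (vitronectin) were lower, at log2 differences of -1.36, -1.1 and -0.93. No old library reached the young range of F11 or Ahsg. F9, another coagulation factor, was higher by 1.69. Alb, the albumin gene, was higher by 0.48, from 29339, 29038 and 27265 to 44475, 34489 and 40276 CPM, a call lost when any 1 library except old replicate 2 was left out. Scaling to fly genes left 6 members called lower.

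Of 48 measured urea cycle and amino acid genes, 21 were lower and 2 higher, with a median of -0.39. Within the urea cycle, Cps1, its first enzyme, went from 1943, 2031 and 2185 to 773, 962 and 1187 CPM (log2 difference -1.08), and Ass1 and Asl were lower, at log2 differences of -1.1 and -1.15. Otc and Arg1, the last enzyme, were the 2 members higher (0.76 and 0.56), and both calls were lost without old replicate 2, that of Otc also without young replicate 3 and that of Arg1 without young replicate 1 or 2. Agxt, which detoxifies glyoxylate, went from 271, 339.9 and 243 to 89.7, 83.2 and 123 CPM (log2 difference -1.53 ± 0.19), and Sardh and Prodh, which break down sarcosine and proline, were lower, at log2 differences of -1.47 and -1.37. Scaling to fly genes left 5 members called lower. Acute phase proteins went both ways, with 5 of 23 higher and 6 lower. Serpina3k fell from 8303, 7991 and 8273 to 1329, 1426 and 2036 CPM (-2.36), Saa1 and Hamp (hepcidin, which limits iron uptake) were lower, at log2 differences of -1.62 and -1.35, and Fgl1 was higher by 1.58.

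Zonation lists overlap those above. Of 30 periportal genes, 16 were lower and 7 higher, with a median of -0.61, and of 34 pericentral genes 9 were higher and 9 lower, with a median of 0.00. The difference between these lists was not tested. Cdh1, the E-cadherin of periportal hepatocytes and of bile duct cells, went from 68.8, 67.9 and 53.2 to 0.811, 2.68 and 0.835 CPM (log2 difference -5.4 ± 0.44, adjusted p = 1.18e-07). Glul, glutamine synthetase of the innermost pericentral layer, was lower, at a log2 difference of -0.61, and so was the periportal P450 Cyp2f2 (-1.34). Spp1, osteopontin, which bile duct cells also make, was higher, from 2.22, 2.39 and 1.4 to 9.38, 15.4 and 6.62 CPM (2.39). Of 12 measured cholangiocyte markers 2 were higher (16.7%) and 3 lower (25%), with sums of 38.7 to 57.5 CPM in young and 45.7 to 62.7 CPM in old libraries. Of 34 gluconeogenesis and glycolysis genes, 7 were higher (20.6%) and 8 lower (23.5%), beside 12.4% and 13.1% over all tested genes. Ppp1r3b, which targets a phosphatase to glycogen, went from 51, 64.2 and 64.3 to 191, 151 and 174 CPM (1.52), and G6pc, which releases glucose, was at 102, 185 and 255 against 201, 209 and 318 CPM (adjusted p = 0.331).

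Genes that make and use the cap metabolites were set beside the shares over all tested genes, 12.4% higher and 13.1% lower. Whether their shares differed from these was not tested. Of 33 measured NAD genes, 3 were higher (9.09%) and 7 lower (21.2%), with a median of -0.26. Afmid and Qprt, of the route from tryptophan to NAD, and Nadsyn1, its last enzyme, were lower, at log2 differences of -1.32, -0.78 and -1.3. Nadk2, the mitochondrial NAD kinase, was higher by 1.46. Cd38, which consumes NAD, was higher by 0.79, a call lost without young replicate 2 or 3 or old replicate 1 or 3. Nampt, of the salvage route, stood at 20.4, 16.7 and 20.4 against 28.3, 29.4 and 25.4 CPM (adjusted p = 0.19). Among 26 genes that remove metabolite or m7G caps or make coenzyme A, 2 were higher (7.69%) and 3 lower (11.5%), beside 12.4% and 13.1% over all tested genes. Nudt12, which removes NAD caps, went from 8.32, 3.39 and 3.1 to 14.2, 15.7 and 12.3 CPM (log2 difference 1.5 ± 0.42, adjusted p = 0.0135). This call was lost without young replicate 2 or 3 and with scaling to spike-ins or fly genes. Dxo, another enzyme that removes them, went from 22.3, 22.6 and 21 to 9.26, 10.3 and 12.8 CPM (-1.02 ± 0.20, adjusted p = 0.00103). The call of Dxo was lost with scaling to the spike-in total or to fly genes. Nudt7, a peroxisomal coenzyme A hydrolase that also stands in the male-biased list, went from 412, 365 and 391 to 75.6, 76.9 and 71.8 CPM (-2.38). Edc3, a decapping co-factor, was lower, at a log2 difference of -1.06, a call lost without replicate 1 of either age. Pank1, which starts coenzyme A synthesis, was higher by 0.59, a call lost without replicate 2 of either age.

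Mitochondrially encoded genes took 9.93% ± 0.955 (SD, n = 3) of mouse counts in old and 8.77% ± 1.47 (SD, n = 3) in young captured libraries. The difference of 1.16 percentage points gave p = 0.2 in a two-sided exact permutation test, whose smallest possible p is 0.1. Of the 22 measured genes, 4 were higher (18.2%) and 6 lower (27.3%), beside 12.4% and 13.1% over all tested genes. Those higher were mt-Co3, mt-Atp6, mt-Rnr2 and mt-Cytb, by 1.47, 1.44, 1.29 and 0.8, and mt-Co1 was lower, at a log2 difference of -0.78. The list's median of -0.97 became 0.18 where at least 10 counts were required in every library. The other 5 lower were mt-Nd3 and the transfer RNA genes mt-Tq, mt-Te, mt-Tc and mt-Tp. With 1 library left out, each of the 10 calls other than those of mt-Nd3 and mt-Tq was lost in at least 1 fit: mt-Rnr2 and mt-Co3 without old replicate 2, mt-Atp6 without replicate 1 of either age, mt-Cytb without young replicate 3 or old replicate 1, mt-Te and mt-Tp without young replicate 3, and mt-Co1 and mt-Tc without young replicate 2 or 3 or old replicate 1 or 2. Mitochondrial genes abut or overlap, and reads may be shared between neighbours. Nuclear genes of the respiratory chain were near the background, with 9 of 72 higher and 13 lower and a median of 0.02, and 18 of 83 cytosolic ribosomal protein genes were higher and 4 lower, with a median of 0.12 that became -0.06 under scaling to the 0% spike-in. Scaling to the spike-in total left 0 ribosomal genes called in either direction.

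Several p53 targets other than Cdkn1a were also higher. Of 18 measured genes of senescence and p53, 7 were higher and 1 lower (Glb1, -1.12), with a median of 0.69, and without old replicate 2 the number higher was 4. Trp53inp1 went from 6.95, 6.87 and 9.12 to 27.6, 29 and 35.4 CPM (log2 difference 2.0 ± 0.26), and Ccng1 was higher by 1.44. Eda2r had 1 count among the young libraries, and its ratio of 56.1 carried a counting interval of 9.62 to 2259. Phlda3 and Bbc3 (PUMA) were higher by 3.06 and 1.38, and both calls were lost without old replicate 2, that of Phlda3 also without young replicate 1 or 2 and that of Bbc3 without young replicate 3. Cdkn2a, which codes for p16, had no count in any captured library. Mdm2 was at 5.39, 5.63 and 2.74 against 7.53, 9.69 and 9.42 CPM and did not pass the test (adjusted p = 0.0616). Of 20 measured cell cycle genes, 2 were higher (10%), Pcna and Top2a, and Ccne1 was lower (5%), beside 12.4% and 13.1% over all tested genes. The call of Pcna was lost without old replicate 1 and that of Top2a without young replicate 2 or 3 or old replicate 2.

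Stress genes went both ways. Of 30 genes of the unfolded protein response and heat shock, 8 were higher and 7 lower. The cytosolic chaperones Hsp90aa1 and Hspb1 were higher, Hsp90aa1 from 2.69, 2.24 and 2.19 to 29.1, 66.6 and 16.3 CPM (log2 difference 3.97 ± 0.46) and Hspb1 from 5.45, 5.94 and 5.78 to 18.8, 31.4 and 32.3 CPM (2.27). Asns and Trib3, which the factor ATF4 drives, were lower. Asns, asparagine synthetase, went from 4.19, 2.78 and 5.59 to 0.116, 0 and 0 CPM, a ratio of 177 with a counting interval of 31.3 to 7007, and Trib3 from 8.14, 21.4 and 13.2 to 0.926, 3.82 and 3.93 CPM (-2.23). Xbp1, a factor of secretory cells, was lower, at a log2 difference of -1.55. Hspa5 (BiP) was at 131, 110.4 and 115 against 154, 142 and 146 CPM (adjusted p = 0.139).

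Interferon-response genes were higher in 17 of 41 and lower in 0, with a median of 0.83. At an unadjusted p under 0.05, 21 were higher and 1 lower, and DESeq2 also called 0 lower. Trim30a went from 2.16, 0.849 and 2.37 to 11.1, 13.9 and 7.09 CPM (log2 difference 2.55 ± 0.43), Cxcl9, a T cell attractant, from 4.49, 3.93 and 5.17 to 19, 17.6 and 11.4 CPM (1.81), and the antiviral gene Rsad2 from 4.37, 0.772 and 5.47 to 9.96, 14.1 and 14.2 CPM (1.83). Rtp4 and Cxcl10 were higher by 1.04 and 1.43. The classical members Ifit1 and Ifit2 were higher by 2.24 and 2.88, and both calls were lost without young replicate 2 or 3 or old replicate 1 or 2. Isg15, another classical member, was at 1.32, 3.7 and 1.89 against 2.43, 3.44 and 2.09 CPM (adjusted p = 0.658). Scaling to fly genes left 5 members called higher. Antigen presentation genes were higher in 2 of 23 (8.7%), Ctss and H2-Aa, by 1.55 and 1.41, and lower in 5 (21.7%), among them Tap2 (-1.46). The shares over all tested genes were 12.4% and 13.1%. The call of H2-Aa was lost without young replicate 1 or 3 or old replicate 2.

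Markers of some immune and blood cells were higher beside these genes. Of 19 measured B and plasma cell markers, 10 were higher and 1 lower, and their sum was 22.3 to 34.5 CPM in young and 124.5 to 271.6 CPM in old libraries. All 10 were antibody genes or Jchain, which joins antibody chains. Igkc, the kappa constant region, stood at 2.4, 4.71 and 1.64 CPM in young and 71.6, 38.1 and 87.7 CPM in old libraries (log2 difference 4.52 ± 0.44, adjusted p = 9.84e-07), and Ighm at 6.77, 9.18 and 9.85 against 117, 57.6 and 136 CPM (3.59). Igha had no count in young libraries and 5.09, 3.89 and 9.66 CPM in old ones, at least 31.4-fold higher. Old replicate 2 was the lowest of the old libraries for each of the 3 and still above every young one. Cd79a, part of the B cell receptor, was at 1.5, 1.77 and 0.486 against 1.97, 0.574 and 1.61 CPM (adjusted p = 0.904), and Derl3 was lower, at a log2 difference of -2.75. A marker with no count in young captured libraries, such as Igha, could only be called higher or not at all. With at least 10 counts required in every library, 2 markers were called higher.

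Of 30 measured macrophage markers, 13 were higher and 0 lower, with a median of 1.05 and sums of 454 to 510 CPM in young and 599 to 908 CPM in old libraries. At an unadjusted p under 0.05, 16 were higher and 0 lower, and DESeq2 called 0 lower. Vsig4, a complement receptor of resident Kupffer cells, went from 5.81, 8.1 and 4.14 to 31, 15.5 and 16.6 CPM (1.8), and Lyz2, lysozyme, from 31.6, 20.5 and 24.2 to 82.3, 52.9 and 51.4 CPM (1.28). Gpnmb, a marker of lipid-laden macrophages, and Mpeg1, a pore-forming protein of macrophages, were higher by 5.83 and 1.12. Gpnmb averaged under 50 counts over the 6 captured libraries, so the size of its change rests on low counts. Clec4f, specific to Kupffer cells, was at 25.3, 28 and 38.2 against 35.7, 21 and 29 CPM (adjusted p = 0.852). Scaling to the spike-in total left 6 markers called higher. Of 5 measured neutrophil markers 2 were higher, S100a8 and S100a9, with sums of 0.540 to 1.08 CPM in young and 3.19 to 5.09 CPM in old libraries, while Ly6g, Cxcr2 and Mmp8 had no count. The call of S100a9 was lost when any 1 library except young replicate 1 was left out. Among 11 measured T and NK cell markers 0 were higher (2 at an unadjusted p under 0.05, 1 by DESeq2) and 1, Cd4, was lower, with sums of 5.32 to 7.97 CPM and 7.06 to 11.03 CPM. The call of Cd4 was lost without old replicate 1 or 2.

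Stellate cell and fibroblast markers were higher in 6 of 23 and lower in 0 (7 and 0 at an unadjusted p under 0.05, 0 lower by DESeq2), with sums of 220 to 241 CPM in young and 303 to 486 CPM in old libraries. Dcn, decorin of the matrix, went from 22.8, 26.2 and 17.8 to 77.2, 127 and 64.2 CPM (log2 difference 2.01 ± 0.25), and Lrat, which stores vitamin A in stellate cells, from 4.85, 3.7 and 4.07 to 16.3, 30.6 and 15.9 CPM (2.31). Old replicate 2 held the highest level of both. Col1a1, of collagen, was at 8.92, 7.72 and 8.09 against 6.83, 20.6 and 7.87 CPM (adjusted p = 0.401). Endothelial markers were higher in 2 of 24 (8.33%) and lower in 4 (16.7%), beside 12.4% and 13.1% over all tested genes. Their sums were 3951 to 5100 CPM in young and 1379 to 3453 CPM in old libraries. Stab2 of the sinusoids was lower, at a log2 difference of -0.92, a call lost without young replicate 2. Of 5 measured red cell markers, 4 were higher and 1 lower, with sums that overlapped, 121 to 136 CPM in young and 108 to 272 CPM in old libraries. Those higher were haemoglobin genes, Hba-a1 from 5.03, 5.25 and 5.53 to 67.9, 21.2 and 43.8 CPM (3.06) and Hbb-bs from 10.5, 15.2 and 11.9 to 106, 31.9 and 81.7 CPM (2.54) and, by 2.91 and 2.09, Hba-a2 and Hbb-bt. Alas2, which starts haem synthesis in red cell precursors and also stands in the male-biased list, was lower, from 111, 111 and 101 to 68.1, 39.5 and 81.2 CPM (-0.77), a call lost without young replicate 1 or 2 or old replicate 2. Hemgn of the same precursors had no count. The 14 listed pancreatic acinar markers, 2 of them measured, summed to 13.6 to 14.6 CPM in young and 4.72 to 6.44 CPM in old libraries. What the number of these cells contributed to the immune and matrix lists was not tested.

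Clock genes were higher in 5 of 21 and lower in 12, among them Npas2 (0.359, 0.463 and 0.0608 to 9.73, 16.3 and 19.8 CPM, log2 difference 5.7) and Arntl (4.14) upward and Dbp (12.6, 33.3 and 45.1 to 0.116, 0.382 and 0.119 CPM, -7.06), Ciart (-6.06) and Per3 (-4.31) downward. Their levels follow the time of day, which the labels do not give, so age and the time of sampling cannot be told apart for them. The same limit holds for genes of the other lists whose levels follow the time of day. Which of them do so was not tested.

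The age difference in all-capped RNA of the same ages was mostly alike in direction. There, 11.7% of tested genes were higher and 13.3% lower at 18 months. Of the 1624 genes higher in captured RNA, 954 were also higher (of 1533 higher there) and 0 were lower in all-capped RNA, and of the 1722 lower genes 1204 were also lower (of 1742) and 1, Oaf, was higher. The median log2 difference in all-capped RNA was -2.19 for male-biased and 1.37 for female-biased genes. The difference between the age effects was tested as an interaction, and with libraries taken as independent 2 genes (0.0152% of those tested) passed, both with a more negative effect in captured RNA. The genes more positive then numbered 0 (319 at an unadjusted p under 0.05, 2 by DESeq2), and 0 of 1082 distinct list members passed (89 at an unadjusted p under 0.05, beside 5.14% of all tested genes).

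Captured and all-capped libraries of one age and replicate number deviated together, so the interaction was also fitted with each such pair as a block, an alternative added after seeing the data. It called 104 genes (0.792% of those tested), 31 with a more positive and 73 with a more negative age effect in captured RNA, and 29 of the 1082 list members. Rac1 and Oaf, which are in none of the lists, were among the 104. With spike-in total scaling the counts were 11 and 23, with fly-gene scaling 4 and 35, and leaving out 1 pair gave 4 (without old pair 1) to 45 (without young pair 2) more positive and 39 (without old pair 2) to 90 (without young pair 2) more negative. Slco1a1, Igfbp3, Nfil3 and Rps14 had the largest differences among the 29 list members called in this paired fit. Slco1a1 was lower with age in both kinds of library, at log2 differences of -4.75 in captured and -2.79 in all-capped RNA (paired interaction -1.93 ± 0.39 SE, adjusted p = 0.0104), a call lost without young pair 1 or old pair 1 or 2. Nfil3, a repressor in the clock list, was at 0.66 in captured and 2.10 in all-capped RNA (interaction -1.59 ± 0.27, adjusted p = 0.00226), and Rps14, of the small ribosomal subunit, at -0.09 and 1.34 (interaction -1.49 ± 0.23, adjusted p = 0.000861). Igfbp3, an IGF carrier, was at 0.26 and 1.92 (interaction -1.62), a call lost without any 1 of 4 pairs (young 1 and 3, old 1 and 3) and with scaling to spike-ins or fly genes. Lifr, a cytokine receptor of the male-biased list, fell less in captured RNA, at -1.77 against -3.13 (interaction 1.37 ± 0.21, adjusted p = 0.000914). The calls of Lifr, Nfil3 and Rps14 held under each of 4 other scalings and without each of the 6 pairs. A p that misses the threshold does not show that the effects were alike.

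**Figure D5:**
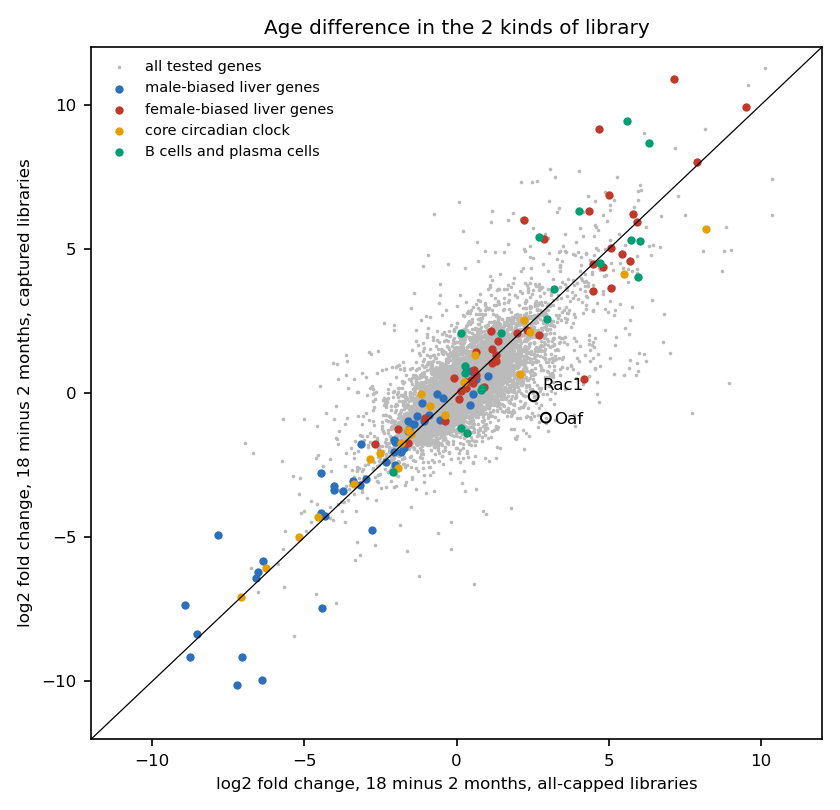
Log2 fold change of each tested gene (18 minus 2 months) in all-capped libraries (horizontal axis) and captured libraries (vertical axis), with the line of equal change. Male-biased genes (blue) lie mostly at the lower left and female-biased genes (red) mostly at the upper right, and circles mark Rac1 and Oaf, the 2 genes whose age effects differed between the kinds of library with libraries unpaired.

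The 6 captured libraries of sets 3C and 3D, also of 2 months and not used in the tests, gave a second view of the young level. Among the 1124 genes higher and 1552 lower in old mice that averaged 50 counts or more and did not overlap, 71.0% to 90.7% and 79.2% to 92.8% lay nearer to the young than to the old mean in these libraries. The lowest shares in both directions belonged to set 3D replicate 1. Hsd3b5 ranged from 222 to 308 CPM in them, Selenbp2 from 974 to 1232 CPM and Serpina1e from 25408 to 33196 CPM, all far above every old library. Cidea, Rad51b and Npas2 had no count in any of the 6, and Cyp2b9 ranged from 0 to 2.41 CPM and Cdkn1a from 0.669 to 3.05 CPM. Scd1 ranged from 2159 to 5116 CPM, Gstm1 from 5388 to 8482 CPM and Igkc from 1.16 to 3.08 CPM, below every old library in each case. No 18-month captured libraries other than the 3 analysed here were used.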

How the data were processed

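The deposited files are tables of whole-number read counts per gene and library. Per the submitters' processing notes, reads were handled with Trim Galore 0.6.6, STAR 2.7.6a, featureCounts 2.0.1 and Salmon on builds GRCm39 and BDGP6, and the notes give no role or order. Whether counting used strand is not given in the sources used here. The age table held 55416 mouse genes, 17612 fly genes and 4 spike-ins, and 52083 mouse genes had a symbol.

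From these counts, mouse genes were fitted over the 12 age libraries with edgeR 4.0.16 (quasi-likelihood, TMM scaling, filterByExpr by group, group means, limma 3.58.1, R 4.3.3), and the contrast was old captured minus young captured, with Benjamini-Hochberg adjustment over 13124 genes and a threshold of 0.05. The interaction subtracted the age difference of all-capped libraries. Deviations of captured and all-capped libraries of one age and number correlated in all 6 pairs (r from 0.147 upward; between other numbers, at most 0.0506), although no label says that they share an animal, so the interaction was also fitted with the pair as a block. The scripts were tested on simulated counts. Single shares were compared by an exact permutation test. Where a group had no count, a fold is a lower bound against a floor of 3 counts per library, and where it had 1 to 3 counts in all, a ratio with an exact 95% counting interval, which covers counting error only. Replicates of a group differed by more than sampling noise (chi-square per degree of freedom 27.5 to 59.0).

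The 12 genes up and 12 down with the largest fold changes were named among called genes that averaged 50 counts or more and whose levels did not overlap, leaving out predicted or unnamed loci. Examples in each list were up to 4 members by the same size rule, and other members of the lists were named for their role; a few members are not reported here. The members and lists were chosen with earlier results of these data known. Alternatives were DESeq2 1.42.0, other scalings (library size, spike-ins, fly genes), other filters, a replicate block, the captured libraries alone, and leaving out each library.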

Additional observations from a re-analysis of the deposited data

Results flagged for a closer look

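The age difference of 2 genes differed between captured and all-capped RNA by the interaction test of edgeR with libraries unpaired. Rac1, a small GTPase of the cytoskeleton, stood at 74.3, 74.6 and 81.5 CPM in young and 75.3, 54.3 and 83.3 CPM in old captured libraries, and at 21.4, 11.3 and 26.9 CPM in young and 97.2, 108 and 139 CPM in old all-capped libraries. Its log2 difference between the ages was -0.11 in captured and 2.53 in all-capped RNA, an interaction of -2.64 (adjusted p = 0.00593). The captured libraries overlapped between ages and the all-capped ones did not. Oaf stood at 105, 148 and 159 CPM in young and 58.2, 79.1 and 90.1 CPM in old captured libraries, and at 43.0, 51.3 and 123 CPM against 492, 534 and 629.8 CPM in all-capped libraries. Its log2 difference was -0.85 in captured and 2.93 in all-capped RNA, an interaction of -3.79 (adjusted p = 0.000927). Oaf was lower with age in one kind of library and higher in the other, without overlap in either. In the captured libraries of sets 3C and 3D, also of 2 months, it ranged widely, from 90.3 to 390 CPM. The lowest of these lay beside the highest old captured library.

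With the captured and all-capped library of one age and number paired, the age difference of 16 further list members named in the text also differed between the kinds of library. It was more negative in captured RNA for Slco1a1 (-1.93), Igfbp3 (-1.62), Nfil3 (-1.59), Rps14 (-1.49), mt-Co1 (-1.36), Afmid (-1.14), Hamp (-1.08), Hbb-bs (-0.991), Thrsp (-0.963), Asl (-0.955), Saa1 (-0.925) and Slc10a1 (-0.667), as log2 interactions. It was more positive for Lifr (1.37), mt-Cytb (0.869), Igf1 (0.813) and Mup20 (0.736). With each scaling other than TMM and with each pair left out in turn, 3 of the 16 kept their call throughout (Lifr, Nfil3 and Rps14), and mt-Co1 lost it with the spike-in total alone.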

How the results depend on the processing

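The 24 genes with the largest changes kept their direction and call in each of the 15 settings that tested them. They were chosen from these same libraries by size, adjusted p and lack of overlap, which made a kept call likely in advance. Requiring at least 10 counts in every library left out those near 0 at one age, such as Cidea and Adgrf1. Of 241 called genes that the text names or that served as examples, 172 kept their call under every setting that tested them and 0 reversed. The call was lost by 54 with the spike-in total, 54 with fly genes, 40 with the 0% spike-in and 39 when 1 captured library was left out. Among those lost both with the spike-in total and with fly genes were Dxo, Esr1, Acaca, Plin2, Ppara, C3, Vtn, Ass1 and Cxcl10. Scaling also lowered the counts of lists whose range is not given above, for example of respiratory chain genes from 9 higher and 13 lower to 1 and 0 and of NAD genes lower from 7 to 2 with the spike-in total, and of periportal genes lower from 16 to 9 with fly genes.

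Counts of genes higher and lower (1624 and 1722) moved most with scaling: 658 and 575 with the spike-in total, 698 and 932 with the 0% spike-in, 632 and 514 with fly genes, and 1080 lower with library size only. The median over all genes shifted to 0.23 with library size only and -0.13 with the 0% spike-in. All 1233 calls under the spike-in total were among those reported, in the same direction. At least a 2-fold change left 866 lower. With 1 captured library left out, 957 (without young replicate 2) to 1544 were higher and 1177 to 1744 lower. The interaction (0 positive, 2 negative) gave 2 and 26 genes with DESeq2, 5 and 31 with no filter, 0 negative with the spike-in total, 1 with the 0% spike-in and 1 with fly genes, and 2 to 5 negative with 1 captured library left out.

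Replicate numbers did not pair the ages: deviations of same-numbered young and old captured libraries correlated at -0.00082, -0.138 and -0.0115, and no library is labelled as sharing an animal or day. With the replicate number as a block, 1696 genes were higher and 1838 lower, and the interaction had 0 positive and 3 negative genes. With the paired block of captured and all-capped libraries within an age, the interaction had 31 positive and 73 negative genes. The mitochondrial share differed by 0.426 to 1.90 percentage points with 1 library left out and by 0.211 as a share of all counts, and its design cannot reach a p under 0.1. Old replicate 1 held the fewest mouse counts, which limits genes at low levels.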
